A study of Mus musculus with 4 samples.

Results

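The collagen gene family was followed through molar tooth development in C57BL/6 mouse embryos. Its members were chosen by name: every probe of the arrays, control spots left out, whose gene name was Col, a type number, the letter a and a chain number. That gave 78 probes for 40 collagen genes, out of 27665 genes on the array. Of these, 36 were measured, meaning that their brightest probe was well above background in at least 1 non-E14 stage or in the E14 channel of at least 2 arrays, against 17395 genes in all. Col4a3, Col10a1, Col19a1 and Col28a1 did not reach that level. Pools of whole first molar germs of the lower jaw, labelled by strain with no genotype given, were compared at embryonic day (E) 11, 12, 16 and 18 with a pool at E14. Each of the 4 arrays held E14 RNA in Cy3 and 1 other stage in Cy5, with no dye swap.

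A collagen molecule is a triple helix of 3 chains, which come from 1 gene or from several genes of the same type. Fibrillar collagens (types I, II, III, V, XI, XXIV and XXVII) form the fibres of connective tissue, and type IV forms the network of basement membranes. Type VI makes beaded filaments, type VII anchors epithelium to the tissue beneath it, and the fibril-associated types sit on the surface of other fibres. Types XIII, XVII, XXIII and XXV span the cell membrane. In a tooth germ an epithelium grows into a mesenchyme that becomes the dental papilla and follicle. The odontoblasts that differentiate from the papilla later secrete dentin, whose main protein is type I collagen.

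Values are log2 ratios of a stage over E14, so that -1 is a level 2-fold below E14. E14 was hybridised 4 times, and its SD over those hybridisations ranged from 0.0150 to 0.262 log2 units over the measured collagen genes, with a median of 0.0581. That spread is technical. Each stage was 1 pool on 1 array, so no difference between stages could be tested against the spread between animals, and the number of arrays limits the precision. A dye effect particular to a probe cannot be told apart from a difference between E14 and the other stages, whereas it cancels where 2 of the other stages are compared. The E11 and E12 arrays shared a slide, as did those of E16 and E18. In these whole germs fewer cells of a type and less RNA per cell cannot be told apart. The probes well above background made up 52.5% to 59.0% of all probes in Cy5 and 54.3% to 57.0% in Cy3.

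As a check of the labelled tissue, all 8 epithelial and all 8 mesenchymal markers chosen for the tooth germ were measured. The summed level of the epithelial markers, which include the keratins Krt5 and Krt14, stood at -2.82, -1.60, 0.98 and 0.24 at E11, E12, E16 and E18. The summed level of the mesenchymal markers, which include Prrx1 and Pax9, stood at -0.02, 0.04, -1.65 and -2.53. Of 8 bone markers all were measured, with a summed level of -1.80, -1.34, 0.54 and 0.79. Among them Runx2 stood below E14 throughout, at -1.45, -0.38, -0.69 and -1.53. At E18 Dmp1 and Phex stood at -0.03 and -0.30, while the remaining bone markers were above E14. The summed level of endothelial markers (8 of 8 measured) lay between -0.60 and -0.16. Single ones ranged from -1.29 (Cldn5 at E18) to 0.16 (Tek at E16). The sum of skeletal muscle markers (5 of 8, with Myod1, Ckm and Des not well above background) lay between -0.26 and -0.07. Single ones ranged from -0.50 (Acta1) to 0.59 (Myog), both at E11. The sum of Schwann cell markers (2 of 4) stood at 0.85, 0.09, -0.21 and -0.20, and that of red cell markers (6 of 6) at 2.17, 1.05, -3.83 and -3.90. Of 8 cartilage markers 4 were measured, and their sum stood at 0.94, 0.41, 1.12 and 1.40, while Matn1, Matn3, Snorc and Comp were not well above background. The part that these markers had in the collagen values was not tested.

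Most collagen genes were lower at E11 and E12 than at E14. At E11, 16 of the 36 were at least 2-fold lower than E14, against 4.87% of all measured genes. They were Col1a1, Col1a2, Col3a1, Col5a1, Col5a2, Col6a1, Col6a2, Col6a3, Col7a1, Col8a1, Col8a2, Col11a1, Col13a1, Col14a1, Col16a1 and Col17a1. Only Col2a1 and Col9a1, chains of cartilage collagens, were at least 2-fold higher there (1.6% of all genes). Col9a1 was well above background in the E14 channel of only 1 array. At E12, 13 were at least 2-fold lower (2.63% of all genes) and 0 higher (0.316%).

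At E16 the median of the family was closest to E14 (with median centring it was closest at E12). There 2 genes, Col6a2 and Col6a3, were at least 2-fold lower (1.7% of all genes), and 5, Col4a6, Col9a3, Col14a1, Col17a1 and Col22a1, were higher (2.01%). At E18, 12 genes were again at least 2-fold lower (3.86% of all genes) and 3 higher, namely Col9a3, Col14a1 and Col22a1 (3.81%). The median log2 ratio of the 36 genes was -0.85, -0.67, -0.20 and -0.48 over the stages in that order, where the median of all measured genes was -0.02, -0.004, 0.005 and -0.01. With each array centred on its median in place of the intensity-dependent loess, the median of all genes itself moved to 0.40, 0.64, 0.57 and 0.17. The collagen median, less that shift, was then -0.64, -0.66, -0.04 and -0.44, and without taking off the shift it turned to 0.54 at E16. The counts under that centring were 10 lower and 2 higher at E11, 4 and 2 at E12, 1 and 9 at E16, and 7 and 4 at E18. Of all genes 1.64%, 0.724%, 0.236% and 1.66% were then lower and 24.5%, 32.6%, 24.5% and 11.6% higher, so that 9 of 36 at E16 is near the share of all genes. With the scanner software's own ratios, which carry no offset, they were 22 and 2, 17 and 2, 6 and 7, and 19 and 3. Of all genes 13.3%, 8.03%, 8.10% and 14.0% were then lower and 8.83%, 4.90%, 8.44% and 11.9% higher.

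**Figure D1:**
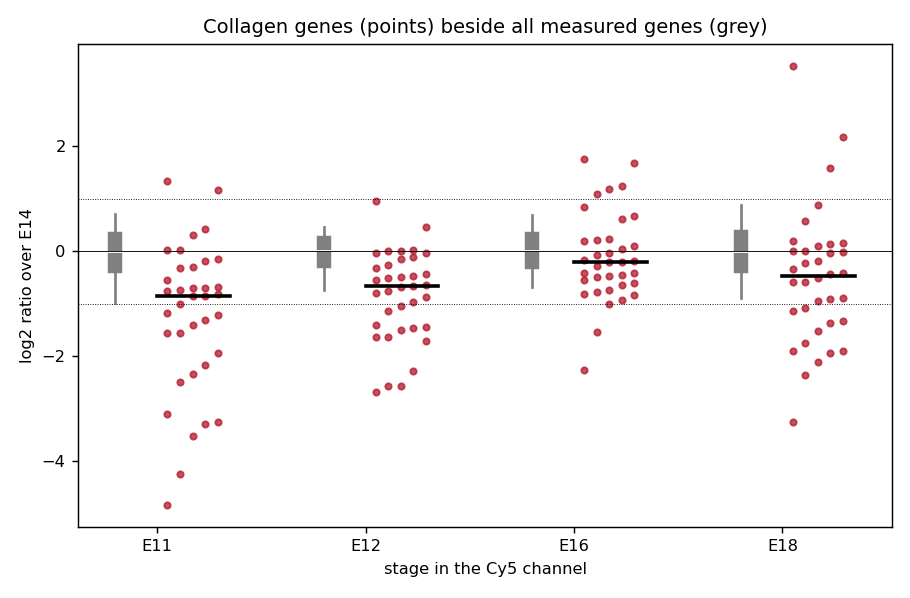
Log2 ratio over E14 of the 36 measured collagen genes (red points, 1 per gene, spread sideways only to be visible, with their median as a black bar) beside all 17395 measured genes (grey: thin line, 5th to 95th percentile; thick bar, between the quartiles; white mark, median) at E11, E12, E16 and E18, 1 array each. Dotted lines mark 2-fold; the collagen medians are -0.85, -0.67, -0.20 and -0.48, of which the one at E16 is 0.54 with median centring.

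Counted gene by gene, 19 of the 36 were below E14 on all 4 arrays, against 21.9% of all measured genes. All 3 type VI chains were among them, with 7 of the 11 fibrillar chains, 3 of the 4 transmembrane collagens and both main basement membrane chains, Col4a1 and Col4a2. The highest level of the 5 stages was thus at E14 for 19 genes, at E16 for 8, at E18 for 5, at E11 for 4 and at E12 for 0. For stages other than E14 the shares of all genes are not given here, so those counts show no trait of the family. Some rest on small differences: Col20a1 counts as highest at E11, at 0.03 (SD of E14 0.0882). With median centring 4 of the 36 were below E14 on every array (5.90% of all genes), namely Col6a2, Col6a3, Col12a1 and Col23a1. Less the median of all genes the count was 14 of 36 (29.5% of all genes). E14 was in the other dye on every array, so this count and a shared dye effect cannot be told apart.

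Stages other than E14 were set against each other by subtracting their ratios over E14, so these differences restate the same measurements and are no separate support. Between E11 and E12, on 1 slide, 6 collagen genes were at least 2-fold higher at E12, namely Col1a1, Col5a1, Col6a3, Col7a1, Col8a1 and Col17a1 (0.673% of all genes), and 0 were lower (0.305%). From E12 to E16, which lie on different slides, 9 were at least 2-fold higher at E16 (4.79% of all genes) and 1, Col2a1, was lower (1.48%). From E16 to E18, again on 1 slide, 6 were at least 2-fold lower at E18, namely Col1a1, Col1a2, Col3a1, Col4a6, Col8a1 and Col16a1 (0.88% of all genes). Col14a1 and Col22a1 were at least 2-fold higher at E18 than at E16 (0.489%). Of the 36 genes, 26 were higher at E16 than at E18, against 51.5% of all genes. Between the ends of the series, 11 were at least 2-fold higher at E18 than at E11 (5.93% of all genes) and Col2a1 and Col9a1 were lower (2.53%). With the mean of a gene's probes in place of the brightest probe, the count at least 2-fold higher at E12 than at E11 was 2 and the count lower at E18 than at E16 was 1. The shares of all genes for these counts are not given here.

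**Figure D2:**
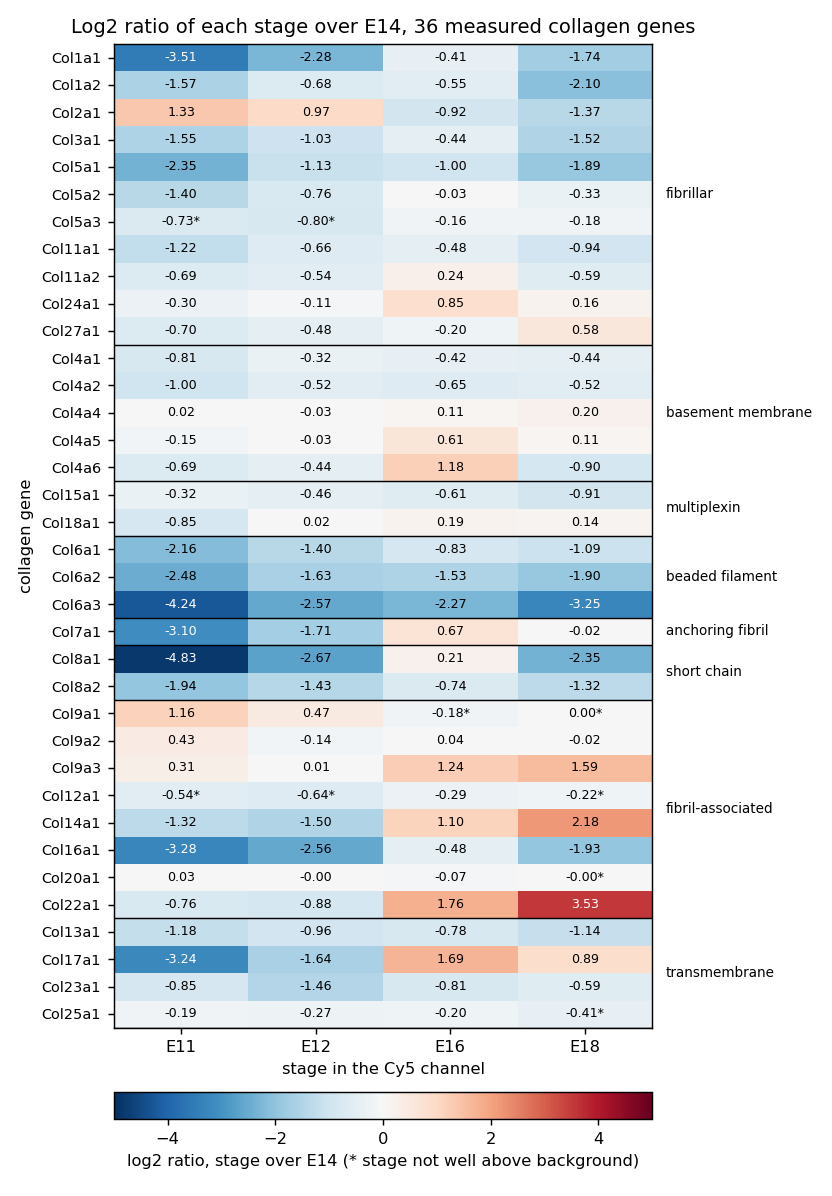
Log2 ratio over E14 of each of the 36 measured collagen genes (rows, grouped by class) at E11, E12, E16 and E18 (columns, 1 array each); blue is below E14, red above, and an asterisk marks a stage in which the probe was not well above background. The type VI chains are blue in every column, while Col14a1 and Col22a1 pass from blue at E11 and E12 to red at E16 and E18; with median centring Col6a1 turns to 0.07 at E16.

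Type I collagen, built of 2 chains from Col1a1 and 1 from Col1a2, was lowest at E11 or E18. The log2 ratio of Col1a1 was -3.51, -2.28, -0.41 and -1.74 at E11, E12, E16 and E18 (SD of E14 0.102, n = 4 hybridisations), measured by a probe at chr11:95060800-95060859 (build mm7) that stood on 10 spots of the array. Col1a1 was thus 11.4-fold below E14 at E11 and 3.35-fold below at E18. Its other probes gave -2.79 and -1.001 at E11 and -1.25 and -0.82 at E18. The ratio of Col1a2 was -1.57, -0.68, -0.55 and -2.10. Both chains were closest to E14 at E16 (with median centring Col1a2 was closest at E11, at -0.05, and Col1a1 at E12, at -0.79), and from E16 to E18 they were lower by 2.52-fold and 2.93-fold.

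The 2 type I chains did not keep the same ratio to E14. Col1a1 lay below Col1a2 by 1.95 log2 units at E11 and by 1.60 at E12, and differed from it by 0.14 at E16 and 0.36 at E18. The second probe of Col1a2 stayed between -0.13 and 0.00 on all arrays, so the difference between the chains depends on which probe is read.

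Type III collagen, a single-gene fibre of soft tissues, and type V collagen, which regulates the width of type I fibres, were also nearest to E14 at E16 and lower at E11. Col3a1 stood at -1.55, -1.03, -0.44 and -1.52, and Col5a1 at -2.35, -1.13, -0.997 and -1.89. With median centring the E12 values turned to 0.45 for Col3a1 and 0.20 for Col5a1. Col3a1 was then nearest to E14 at E11, at -0.13, and farthest from it at E16, at 0.79. Col5a1 stayed nearest at E16, at 0.06. The second measured probe of Col3a1 gave -0.31, -0.09, -0.59 and -0.70, another order of stages, and that of Col5a1 gave -1.06, -0.71, -0.87 and -1.07. The partner chain Col5a2 stood at -1.40, -0.76, -0.03 and -0.33, so that at E18 it lay 1.56 log2 units above Col5a1. With median centring Col5a2 was nearest to E14 at E18, at 0.15. Col5a3 was not well above background at E11 and E12 and was at least 1.66-fold and at least 1.74-fold lower there than at E14. Such a bound is the smaller of 2 readings, the ratio on the array and the difference of channel means, with the dim signal taken as measured or as the lowest signal called above background, whichever was higher. It can carry dye bias.

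The other fibrillar genes stayed nearer to E14, except Col2a1. Col11a1, a chain found inside cartilage and other thin fibres, stood at -1.22, -0.66, -0.48 and -0.94. Its second probe, also above background on all arrays, gave -0.42, -0.59, -0.49 and -0.38. Col11a2 and Col24a1 were within 2-fold of E14 on all arrays. Col27a1 went from -0.70 at E11 to 0.58 at E18, and its slope over embryonic day missed the threshold (0.16 ± 0.04 SE per day, adjusted p = 0.0550). Col2a1, the main collagen of cartilage, went the other way: 1.33, 0.97, -0.92 and -1.37 at E11, E12, E16 and E18 (SD of E14 0.0996). It was 6.50-fold lower at E18 than at E11, and its second measured probe gave 1.66, 1.27, -1.31 and -1.51. The measured cartilage markers were mixed: the regulator Sox9 stood at 1.29, 0.60, 1.49 and 1.64, Hapln1 at 0.36, -0.10, 0.62 and 1.64, Acan at -0.09, -0.05, -0.04 and 0.12, and Cnmd at 0.07, 0.27, -0.08 and -0.01. Of these 4, 0 passed the slope test in limma and 1 had an unadjusted p under 0.05, and their part in the values of Col2a1 was not tested.

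**Figure D3:**
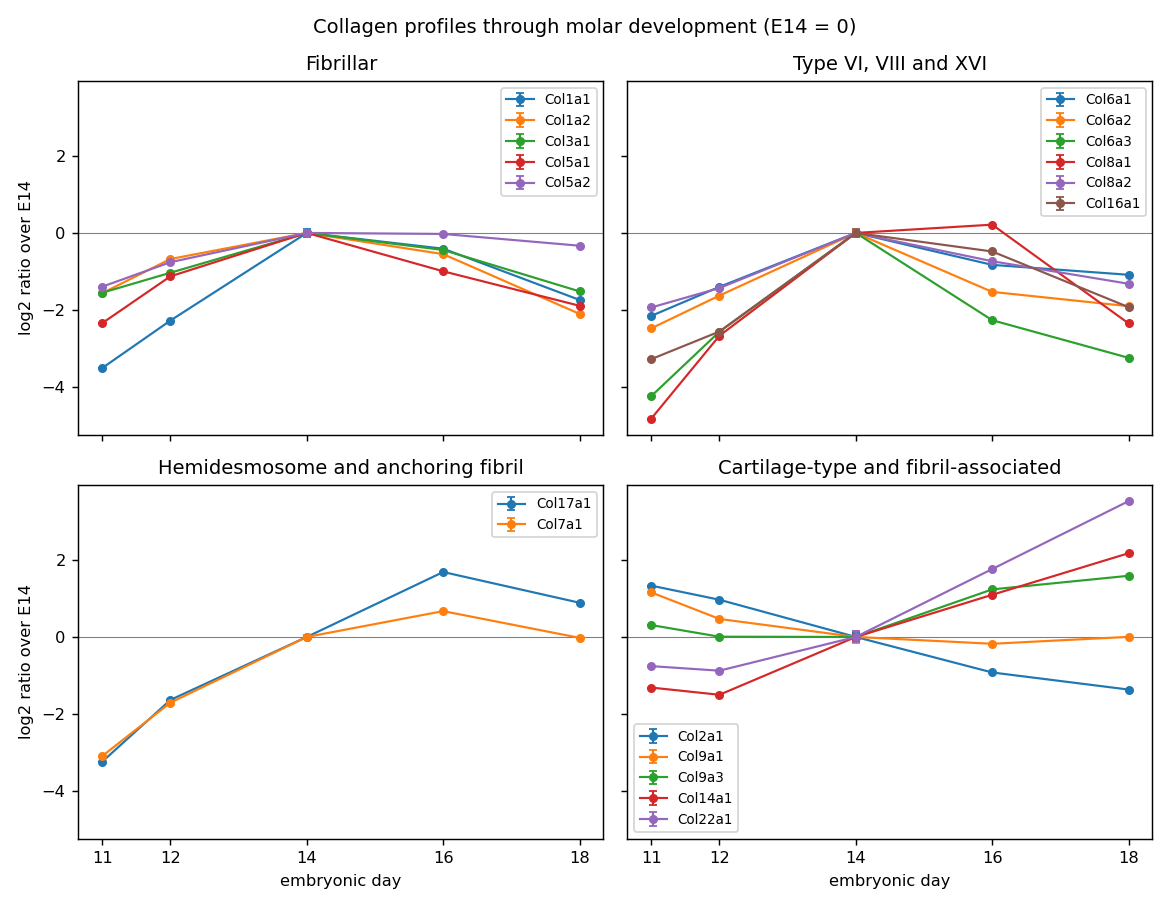
Log2 ratio over E14 (vertical axis) against embryonic day (horizontal axis) for 18 collagen genes in 4 panels, 1 array per stage; E14 is set to 0 with the SD of its 4 hybridisations as an error bar, and it was read in the other dye. Col1a1 lies at -3.51, -2.28, -0.41 and -1.74, Col22a1 climbs from -0.76 to 3.53, and Col9a1 was not well above background at E16 and E18; with median centring Col3a1 and Col5a1 lie above 0 at E12.

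Type VI collagen, a pericellular filament made of all 3 of its chains, was the lowest class at E16 and E18. Col6a1 stood at -2.16, -1.40, -0.83 and -1.09, Col6a2 at -2.48, -1.63, -1.53 and -1.90, and Col6a3 at -4.24, -2.57, -2.27 and -3.25. Col6a2 and Col6a3 were the only collagen genes at least 2-fold below E14 on all 4 arrays, as were 0.351% of all genes. Col6a3 was 18.9-fold below E14 at E11 and 9.49-fold below at E18. By its brightest probe it lay under Col6a1 on every array, by 1.17 to 2.16 log2 units. The other probes of Col6a3, both dimmer, gave -1.04, -0.83, -0.91 and -0.86, and -0.35, -0.21, -0.30 and -0.32. Both lay above Col6a1 at E11, E12 and E18, so the order of these chains depends on which probe is read. The former was not well above background at E11 and E18, the latter in none of these stages. The second probe of Col6a2 gave -0.65, -0.53, -0.63 and -0.69.

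The short-chain collagen Col8a1, known from vessel walls and the cornea, had the largest single difference in the family. It was 28.4-fold below E14 at E11 (log2 ratio -4.83), stood at -2.67 at E12 and 0.21 at E16, and was 5.10-fold below E14 at E18 (-2.35; SD of E14 0.0212). Its second probe gave -0.78, -0.53, 0.95 and -0.08. Col8a2 stood at -1.94, -1.43, -0.74 and -1.32. The fibril-associated Col16a1 followed a course close to that of Col8a1 and Col1a1, at -3.28, -2.56, -0.48 and -1.93. Its other probe, not above background in any of these stages, gave -0.25, -0.26, -0.18 and -0.15.

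Basement membrane collagen varied less. Col4a1 and Col4a2, whose chains together form the network present in all basement membranes, stood at -0.81, -0.32, -0.42 and -0.44 and at -0.997, -0.52, -0.65 and -0.52. They differed from each other by 0.08 to 0.23 log2 units on the 4 arrays, and no other pair of chains compared stayed that close on all of them. In the RefSeq table of assembly GRCm38.p6 their start sites lie 21 bases apart on opposite strands. With median centring both lay above E14 on all 4 arrays. Col4a5 and Col4a4 stayed within 2-fold of E14. Col4a6, a chain of epithelial basement membranes, stood at -0.69, -0.44, 1.18 and -0.90, but its other probes gave 0.14 and 0.38 at E16.

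Of the basement membrane collagens with endostatin-type ends, Col15a1 went from -0.32 at E11 to -0.91 at E18, and Col18a1 from -0.85 at E11 to 0.02, 0.19 and 0.14. Neither was 2-fold from E14 on any array.

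**Figure D4:**
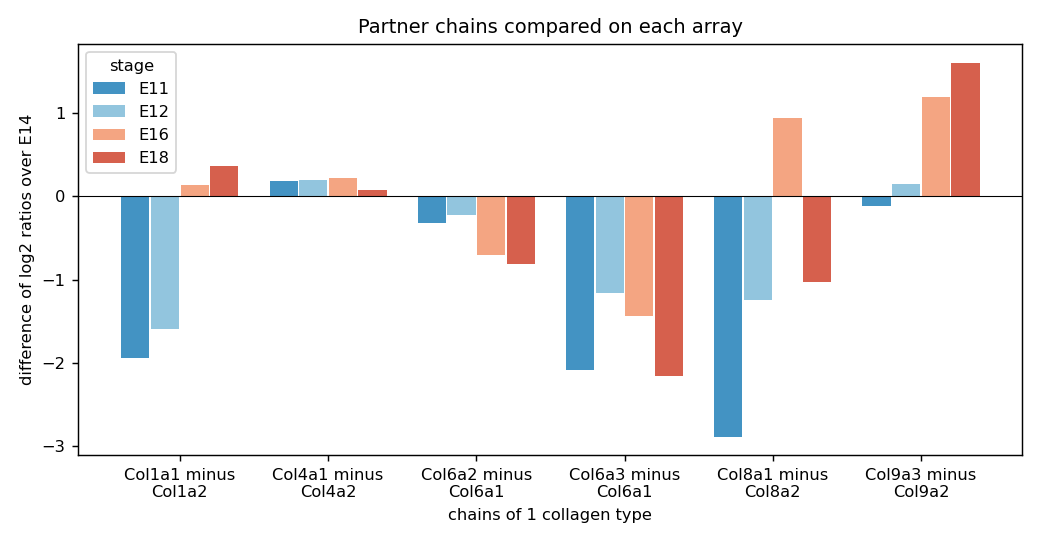
Difference of the log2 ratios over E14 between 2 chains of the same collagen type (vertical axis) for 6 pairs (horizontal axis) at E11, E12, E16 and E18, 1 array per bar. Col4a1 minus Col4a2 stays between 0.08 and 0.23, whereas Col1a1 minus Col1a2 runs from -1.95 at E11 to 0.36 at E18.

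Collagens of the junction between epithelium and mesenchyme were low at E11 and above E14 at E16. Col17a1, a transmembrane protein of hemidesmosomes, stood at -3.24, -1.64, 1.69 and 0.89 at E11, E12, E16 and E18 (SD of E14 0.0346). From E11 to E18 its level differed by 17.5-fold, the later stage being higher. Its second probe, also above background on all arrays, gave smaller ratios of -0.87, -0.66, 1.12 and 0.56. Col7a1, the anchoring fibril, stood at -3.10, -1.71, 0.67 and -0.02 (SD of E14 0.0402) and at E18 was 8.41-fold above its level at E11. The 2 genes differed by 0.07 to 0.15 log2 units at E11 and E12 and by 0.91 to 1.02 at E16 and E18. The summed epithelial markers moved with them, from -2.82 at E11 to 0.98 at E16, and Itgb4, an integrin of the same junction, stood at -3.11, -1.30, 0.44 and 0.08. The part of the epithelial share in these values was not tested.

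The promoters of 2 pairs are shown because the members of each pair had similar courses. Each is the 250 bases before the start site on the gene's strand, from RefSeq, build GRCm38.p6: chr6:4505368-4505617 (plus strand) for Col1a2, chr1:45311288-45311537 (plus) for Col3a1, chr9:108953336-108953585 (plus) for Col7a1 and chr19:47692043-47692292 (minus) for Col17a1. Capitals mark matches to 3 motifs, searched on both strands. The TATA box was read as TATAAA. The second was the CCAAT box, under its own letters. The GC box was read as GGGCGG.
Col1a2: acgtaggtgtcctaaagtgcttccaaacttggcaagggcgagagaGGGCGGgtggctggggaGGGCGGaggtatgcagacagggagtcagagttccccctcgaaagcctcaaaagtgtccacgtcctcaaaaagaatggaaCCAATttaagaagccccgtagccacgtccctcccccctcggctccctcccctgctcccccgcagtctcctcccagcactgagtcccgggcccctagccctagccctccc
Col3a1: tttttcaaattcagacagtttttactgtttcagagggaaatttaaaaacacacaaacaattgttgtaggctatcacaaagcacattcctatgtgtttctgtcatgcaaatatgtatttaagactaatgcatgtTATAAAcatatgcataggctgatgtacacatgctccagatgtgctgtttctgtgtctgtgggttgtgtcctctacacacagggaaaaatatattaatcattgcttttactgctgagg
Col7a1: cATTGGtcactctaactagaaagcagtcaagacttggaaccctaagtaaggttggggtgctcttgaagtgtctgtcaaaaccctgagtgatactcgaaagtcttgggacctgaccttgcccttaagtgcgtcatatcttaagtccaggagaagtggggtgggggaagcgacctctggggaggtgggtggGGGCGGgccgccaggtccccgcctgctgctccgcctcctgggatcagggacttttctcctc
Col17a1: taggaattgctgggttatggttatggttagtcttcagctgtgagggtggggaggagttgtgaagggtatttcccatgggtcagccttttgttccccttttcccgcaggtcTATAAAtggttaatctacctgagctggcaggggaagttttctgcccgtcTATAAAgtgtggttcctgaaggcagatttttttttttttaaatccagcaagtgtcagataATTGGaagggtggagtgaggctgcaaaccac
Col1a2 held 1 CCAAT box and 2 GC boxes, and Col3a1 held 1 TATA box. Col7a1 held 1 CCAAT box and 1 GC box, and Col17a1 held 2 TATA boxes and 1 CCAAT box. Neither pair therefore shared its set of boxes in this window. Over 35 promoters of the 32 collagen genes found in the table, 5 held the TATA box, against 12.4% of all 32851 promoters. The CCAAT box stood in 12 of them (33.8% of all) and the GC box in 19 (32.7% of all). A match is a description of letters, not of a factor bound there.

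The fibril-associated collagens split in both directions. Col22a1, known from tissue junctions such as that of muscle and tendon, stood at -0.76, -0.88, 1.76 and 3.53 at E11, E12, E16 and E18 (SD of E14 0.142), so that E18 was 11.6-fold above E14. Its second probe gave -0.40, -0.40, 1.18 and 3.29. Col14a1, which binds the surface of type I fibres, stood at -1.32, -1.503, 1.096 and 2.18 (SD of E14 0.0883), 11.2-fold higher at E18 than at E11.

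Type IX collagen, which coats cartilage fibres, is built of 3 different chains, and their genes diverged. Col9a1 stood at 1.16 and 0.47 at E11 and E12 and was not well above background at E16 and E18, so that E11 was at least 2.23-fold above E18. In the E14 channel it was well above background on only 1 array (SD of E14 0.148), so its ratios to E14 rest on a dim reference. Col9a2 stayed between -0.14 and 0.43. Col9a3 stood at 0.31, 0.01, 1.24 and 1.59. Col12a1 was well above background only at E16 among the 4 stages. Col20a1 lay between -0.07 and 0.03 on the 4 arrays, but it was not well above background at E18. With the scanner's own ratios, which carry no offset, it stood at 0.49, 0.22, 0.12 and -0.32.

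Of the other transmembrane collagens, Col13a1, found at sites of cell adhesion, stood at -1.18, -0.96, -0.78 and -1.14. Its second probe, also above background on all arrays, gave -0.38, -0.37, -0.33 and -0.24. Col23a1 stood at -0.85, -1.46, -0.81 and -0.59, and its other probes gave -1.33 and -0.34 at E12. Col25a1 stayed between -0.41 and -0.19. It was not well above background at E18, where the scanner's own ratio, without the offset, was -2.13. By the probes used, these 3 genes lay below E14 on all arrays. The second measured probe of Col25a1 stood at 0.003 at E11. With median centring Col13a1 turned to 0.07 at E12 and E16 and Col25a1 to 0.13 at E16.

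The test used was the slope of a straight line through the log2 ratios of the 4 stages. Over embryonic day, 5 collagen genes rose at an adjusted p of at most 0.05 (6.26% of all genes did) and 1 fell (2.64%), by limma with Benjamini-Hochberg adjustment over 17395 genes. Col22a1 rose by 0.63 ± 0.05 (SE) log2 units per day (adjusted p = 0.00525), Col17a1 by 0.63 ± 0.12 (0.0296), Col14a1 by 0.54 ± 0.05 (0.00525), Col7a1 by 0.46 ± 0.10 (0.0401) and Col9a3 by 0.22 ± 0.04 (0.0237). The slope of Col2a1 was -0.40 ± 0.03 per day (0.00522). The other 30 did not pass, among them Col1a1 (0.28 ± 0.11, adjusted p = 0.160) and Col8a1 (0.40 ± 0.19, 0.235), whose highest values lay in the middle of the series. The share of collagen genes that rose was thus 5 of 36 beside 6.26%.

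These slopes rest on 2 residual degrees of freedom and lean on single stages. Without E11 or without E12, 2 collagen genes rose (Col14a1 and Col22a1), without E16 10, and without E18 18, and 1 to 3 fell. The share of all genes passing in each of these fits is not given here, so the counts show no trait of the family. With the slide as a block, 0 collagen genes and 0 of all genes passed in limma, where 5 and 577 had an unadjusted p under 0.05. The slopes were then 0.68 ± 0.19 for Col22a1, 0.39 ± 0.17 for Col14a1, -0.25 ± 0.17 for Col2a1, 0.08 ± 0.14 for Col9a3, 0.001 ± 0.29 for Col17a1 and -0.0002 ± 0.26 for Col7a1. Slide and the 2 sides of E14 are the same split of the arrays.

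**Figure D5:**
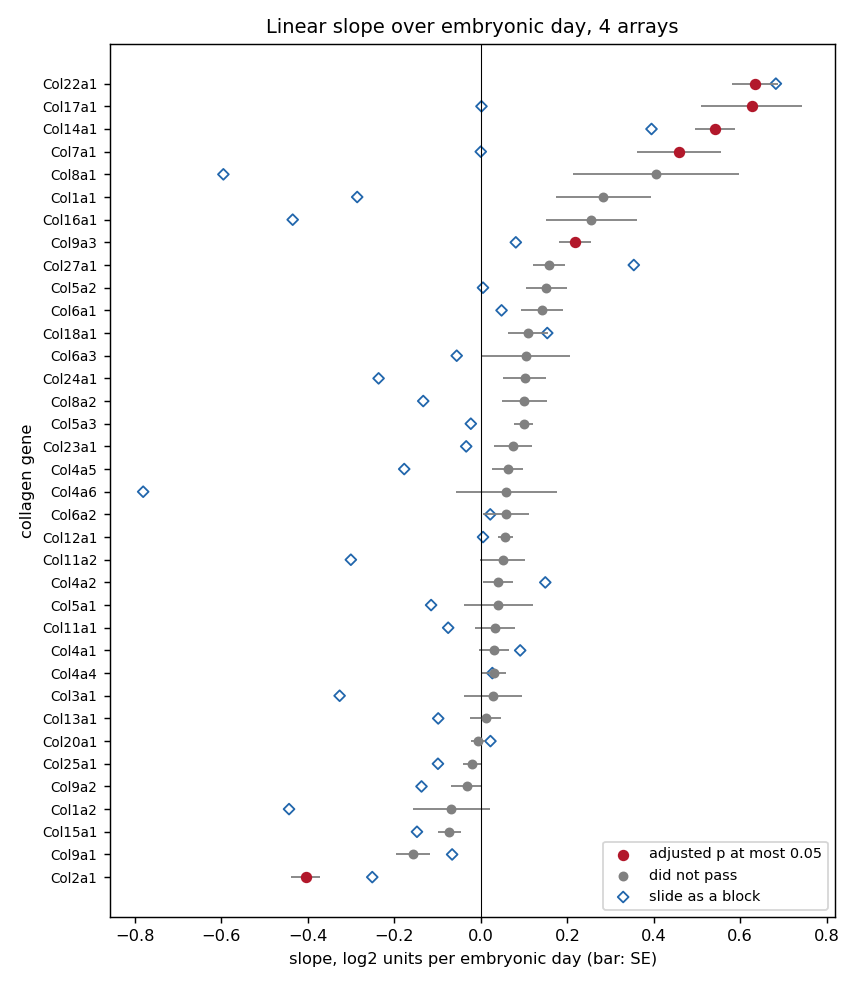
Slope over embryonic day (horizontal axis, log2 units per day, bar: SE) of each measured collagen gene (vertical axis) over the 4 arrays; red points passed an adjusted p of 0.05, grey points did not, and open diamonds give the slope with the slide as a block. Col22a1 and Col14a1 keep slopes of 0.68 and 0.39 with the block, where that of Col17a1 is 0.001.

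The machinery that makes collagen was read from a list of 36 genes, of which 32 were measured. Of these, 7 rose over embryonic day, 0 fell (by limma, adjusted over all genes) and 25 did not pass, beside 6.26% and 2.64% of all genes. At an unadjusted p under 0.05 the counts were 11 and 0, with 27.7% of all genes under it in either direction, a share that 11 of 32 is near. The median of the 32 was -0.58, -0.44, -0.24 and -0.22 at E11, E12, E16 and E18. Among the hydroxylases, the catalytic subunits P4ha1 and P4ha2 of prolyl 4-hydroxylase, which stabilises the triple helix, rose by 0.16 ± 0.03 and 0.17 ± 0.03 per day. P4ha1 stood at -1.04, -0.99, -0.06 and -0.08 and P4ha2 at -0.51, -0.21, 0.58 and 0.68. For folding and export, the peptidyl-prolyl isomerase Fkbp14 rose by 0.21 ± 0.03, the vesicle coat gene Sec24d by 0.16 ± 0.04 and the transcription factor Creb3l1 by 0.13 ± 0.02. Serpinh1, the collagen chaperone HSP47, did not pass and stood at -0.75, -0.74, -0.40 and -0.64.

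Enzymes that trim and join collagen outside the cell were mixed. Adamts2, which removes the N-terminal propeptide of fibrillar collagens, stood at -3.44, -3.68, -0.56 and -0.56 at E11, E12, E16 and E18. Its slope was 0.50 ± 0.07 per day (adjusted p = 0.0136 by limma), and -0.05 ± 0.17 with the slide as a block. Its relative Adamts3 rose by 0.15 ± 0.03, while Bmp1, which removes the C-terminal propeptide, stood at -0.55, -0.12, -0.35 and -1.0004 and did not pass. Of the 4 measured cross-linking oxidases 0 passed in limma, and 1 had an unadjusted p under 0.05. Loxl1 stood at -3.22, -3.40, -0.95 and -2.27 and Lox at -1.35, -1.51, -0.07 and -0.87, both nearest to E14 at E16. Col1a1 and Col16a1 were nearest there too, except that Col1a1 was nearest at E12 with median centring.

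Of 10 collagen receptors, 7 were measured, 3 rose, 1 fell and 3 did not pass (6.26% of all genes rose and 2.64% fell). Ddr1, a receptor kinase of epithelial cells, stood at -1.73, -0.91, 0.58 and 0.47 and rose by 0.32 ± 0.05 per day (adjusted p = 0.0212). Ddr2, its counterpart in mesenchymal cells, stood at -0.54, -0.26, -1.18 and -1.55, with a slope of -0.17 ± 0.03 per day (0.0360). Itgb1 and Itga1, subunits of a collagen-binding integrin, rose by 0.17 ± 0.04 and 0.17 ± 0.04, although Itga1 was not well above background at E11 and E12. The epithelial and mesenchymal marker sums moved the same way as Ddr1 and Ddr2, and their part in these slopes was not tested. With the slide as a block 0 genes of either list passed in limma, and 3 biosynthesis genes and 1 receptor had an unadjusted p under 0.05. The slopes were then 0.005 ± 0.17 for P4ha1, 0.10 ± 0.17 for P4ha2 and 0.19 ± 0.16 for Fkbp14. Sec24d had 0.03 ± 0.17, Creb3l1 0.02 ± 0.08 and Adamts3 0.31 ± 0.11. Among the receptors, Ddr1 had 0.12 ± 0.19, Ddr2 -0.09 ± 0.17, Itgb1 0.02 ± 0.17 and Itga1 0.30 ± 0.12.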

How the data were processed

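Per the labels, Trizol was used to extract total RNA from pooled germs, with no count of germs or litters per pool. Agilent Feature Extraction 10.5.1.1 read the arrays, per the file headers. The deposited files give each spot's signal and background as a linear intensity in both channels. They also give LogRatio, per the file headers the log10 of Cy5 over Cy3 after the software's own background subtraction and dye normalization, and the deposited value table repeats these log10 ratios. The submitters' processing notes name the software with no version.

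Log2 ratios were computed from the intensities with limma 3.58.1 in R 4.3.3: normexp background correction (offset 50), loess within each array with control spots at weight 0, outlier spots (92 to 126 per array) left out, 0 spots saturated. The offset shrinks ratios of dim probes towards 0. Spots were averaged per probe, and a gene took its brightest probe. The slope was fitted with lmFit and eBayes (intensity trend) and tested on simulated data. Probe coordinates are mm7, per the file headers; probe sequences, exon positions and proteins were not used here. All 78 collagen probes had the same RefSeq name as on the array. Marker sums add normalized levels per channel.

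Members, lists, classes and the rule for named genes (those past the slope test, 2-fold from E14 on an array, or at an end of their class; for pathway lists those past the test, the ends of each step and Serpinh1, Lox, Bmp1 and Adamts2) were chosen with earlier results of these data known. The 2-fold counts have no test.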

Additional observations from a re-analysis of the deposited data

Results flagged for a closer look

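Among the 36 measured collagen genes, the E14 signal of 2 had 1 hybridisation standing apart from the other 3. For Col15a1, a basement membrane collagen with an endostatin-type end, the E14 channel of the array with E12 stood apart, with a gap of 0.862 of the whole range, which spanned 0.239 log2 units. For Col27a1, a fibrillar collagen of cartilage, it was the E14 channel of the array with E16, with a gap of 0.966 of a range of 0.0887 log2 units. Both gaps pass Dixon's critical value for 4 values, and chance passes it in about 1 of 20 groups. Both ranges are small beside the 2-fold differences described.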

How the results depend on the processing

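The direction of the family against E14 depended most on how the arrays were centred. Of 53 values at least 2-fold from E14, 2 changed sign with median centring (Col3a1 at E12, to 0.45, and Col5a1 at E12, to 0.20) and 0 under the other settings run. The cause was not tested. No paired analysis was possible because each stage has 1 array and shares no replicate with another.

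With median centring the collagen medians were -0.24, -0.017, 0.54 and -0.27 at E11, E12, E16 and E18, so that the one at E16 reversed. Less the median of all genes, a setting added after the values were seen, they were -0.64 at E11 and -0.036 at E16. With median centring 4 genes lay below E14 on all arrays (a count added after the values were seen), 10, 4, 1 and 7 were at least 2-fold lower at E11, E12, E16 and E18, and 2 and 9 were higher at E12 and E16, where 32.6% and 24.5% of all genes were. Between E16 and E18 it gave 13 lower and 1 higher, and 2 genes fell with embryonic day.

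The scanner's own ratios, with no offset, gave medians of -1.37, -0.87, -0.42 and -1.08, with 6 and 19 genes lower at E16 and E18 and 2 higher at E12. They gave 14 higher and 2 lower at E16 than at E12, 1 lower at E12 than at E11, 11 lower at E18 than at E16, 4 lower at E18 than at E11, and 2 falling slopes. An offset of 10 gave medians of -1.26, -0.86, -0.34 and -0.64. It gave 4 lower at E16 (3.48% of all genes), 1 higher at E12 (0.885%) and 2 lower at E16 than at E12. Without background correction the medians were -1.05, -0.76, -0.27 and -0.58, with 4 lower at E16 (2.67% of all genes) and 2 falling slopes.

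The mean of a gene's probes gave medians of -0.76, -0.60, -0.27 and -0.35, with 1 gene higher at E12 than at E14, 2 higher at E12 than at E11 and 1 lower at E18 than at E16. With no filter the medians were -0.78, -0.59 and -0.37 at E11, E12 and E18. With only genes above background throughout, they were -1.20, -0.82, -0.42 and -0.74, with 1 higher at E11 and 1 lower at E18 than at E11, since Col9a1 was left out. At 1.5-fold, 25, 20 and 10 were lower at E11, E12 and E16, 1 and 8 higher at E12 and E16, 12 higher and 2 lower at E12 than at E11, 17 higher and 2 lower at E16 than at E12, and 13 lower at E18 than at E16. The shares of all genes at 1.5-fold are not given here. Outside the main setting, neither are those between stages, nor those for slopes except with the slide as a block. Counts without such a share describe the settings only.

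Leaving out a stage gave 2 to 18 rising and 1 to 3 falling slopes, with the share of all genes not given here. Without the intensity trend in eBayes 3 rose (Col7a1 and Col17a1 missed, at adjusted p of 0.0705 and 0.0569 by limma). With the slide as a block 0 rose and 0 fell, and the slope of Col7a1 was -0.00022, well within its SE of 0.26. That of Col7a1 also missed with median centring (0.0660). The slopes of Col2a1, Col14a1 and Col22a1 passed under every setting run but the slide block. Dim probes limit the rest: 30 of the 36 genes were above background in both channels of all arrays.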

Other observations

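The arrays also held 4 probes that RefSeq names as collagen but whose name on the array kept them outside the family as defined above. They were read after the values of the family had been seen. Col26a1, an extracellular matrix gene of the developing gonads (named Emid2 on the array), stood at -0.60, -0.50, -1.51 and -1.78 at E11, E12, E16 and E18 (SD of E14 0.0667, n = 4), and its slope was -0.19 ± 0.03 SE per day (adjusted p = 0.0177 by limma). With the slide as a block the slope was -0.09 ± 0.15. Col6a4, a further type VI chain, stayed between -0.20 and 0.06, beside -4.24 to -0.83 for Col6a1, Col6a2 and Col6a3. Its probe was well above background in only 1 of these stages, and the offset shrinks ratios of dim probes. The 2 ranges are therefore not comparable. A further probe of Col11a1 gave -0.24, -0.37, -0.43 and -0.41, beside -1.22, -0.66, -0.48 and -0.94 for the probe used. The probe of Col6a6 was not well above background in any stage.

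Of 22 genes with at least 2 measured probes, 14 had slopes of 1 sign on all of them, and in 0 of the pairs of gene and array did probes lie 2-fold from E14 in opposite directions.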
